A study of Mus musculus with 15 samples.

Results

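Pyruvate oxidation, the tricarboxylic acid (TCA) cycle and the malate-aspartate shuttle are described here by 32 genes in the left ventricle of mice with mutations in Rbm20. The genes were taken by symbol from 3 deposited tables of raw counts that hold 40174 symbols each. The rule that lists them uses no measured value, but they were chosen with earlier results of these data known. All 32 passed a filter on low counts that 17588 symbols passed. By role they are 2 subunits of the mitochondrial pyruvate carrier, 5 subunits of the pyruvate dehydrogenase complex, its 4 kinases and 2 phosphatases, pyruvate carboxylase, 11 genes of the TCA cycle and 7 of the malate-aspartate shuttle.

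In the heart, pyruvate made from glucose and lactate crosses the inner mitochondrial membrane through its carrier and is turned into acetyl-CoA by the pyruvate dehydrogenase complex. Kinases (the Pdk genes) switch the complex off by phosphorylation and phosphatases (the Pdp genes) switch it on again, so that these genes help set the choice between carbohydrate and fatty acids as fuel. The TCA cycle oxidises the acetyl-CoA, and the malate-aspartate shuttle carries the reducing power of cytosolic NADH into the mitochondrion. Rbm20 encodes a splicing regulator of heart muscle, whose mutations are known as a cause of dilated cardiomyopathy.

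The labels give 15 libraries of total RNA from the left ventricle of C57BL/6 mice at 2 months of age, 3 in each of 5 groups. The groups are WT, G-line HET (genotype given as Rbm20 S639G +/-), G-line HOM (Rbm20 S639G -/-), A-line HET (Rbm20 S637A +/-) and A-line HOM (Rbm20 S637A -/-). The stated aim of the series is the part of both mutations in remodelling of the heart. The labels name no founder, and separate animals are not mentioned for the libraries of a group, so the p-values measure the spread between these libraries, which may be technical. Counts per gene show no alleles, and the genotypes could not be checked with them.

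Replicates 2 and 3 of A-line HOM and of WT hold the same count in each of the 40174 symbols. These shared columns were used once, as WT, although nothing in the labels settles their group, so 13 libraries remained, of which A-line HOM has 1. Library totals ran from 20324529 to 29436407 counts in WT and the G-line and from 12959087 to 17448328 counts in A-line HET, with 17507813 counts in A-line HOM. Among the 10 markers of cardiomyocytes, none was at 0 in any library. Myl7, an atrial gene, was below 10 CPM in all libraries but replicate 2 of WT (524 CPM), replicate 1 of G-line HOM (45.8 CPM) and replicate 3 of A-line HET (240.1 CPM). Arntl, a clock gene, ranged from 1.17 to 5.28 CPM except in replicate 1 of G-line HOM, with 24.6 CPM, and replicate 2 of A-line HET, with 29.0 CPM. CPM here means counts per 1000000 counts of a library total scaled by TMM factors.

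Most of the 32 genes were lower in G-line HOM than in WT: 25 fell and 1, Pdk3, rose. "Rose" and "fell" are used for an adjusted p under 0.05 in edgeR's quasi-likelihood F test with Benjamini-Hochberg adjustment over all 17588 genes, and log2 fold changes are given ± SE. In that comparison 26.4% of all genes passed the threshold, 13.1% higher and 13.3% lower. The median log2 fold change was -0.57 over the 32 genes and 0.01 over all genes. In 24 of the 32 genes every G-line HOM library lay below every WT library, a separation found in 21.1% of all genes. The 6 genes that passed in neither direction were Mpc1, Pdhb, Pdk1, Fh1, Mdh1 and Got1. With the shared columns counted as A-line HOM or left out, 1 WT library remained. Fewer genes were then called, among the 32 and among all genes. The calls on 12 genes were kept in all 25 alternative analyses: Cs, Dlat, Dlst, Idh3b, Pcx, Pdk2, Pdk3, Pdp1, Pdp2, Slc25a13, Sucla2 and Suclg2.

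Fewer of the 32 genes passed the threshold in the other groups. In G-line HET 1 gene rose and 2 fell, against a background of 7.52% of all genes called, 3.97% higher and 3.54% lower. Its libraries lay above WT without overlap in 3 of the 32 genes and below in 7, beside 15.1% and 16.5% of all genes. In A-line HET 4 fell and none rose, with 7.96% of all genes called, 3.99% higher and 3.97% lower. In the single A-line HOM library 1 fell, with 4.68% of all genes called (2.82% higher and 1.86% lower), on the assumption that this library varies like those of the other groups. The medians over the 32 genes were -0.02 in G-line HET, -0.25 in A-line HET and -0.23 in A-line HOM, beside -0.01, 0.02 and -0.01 over all genes. These comparisons and the one for G-line HOM share the WT libraries, and whether the effects differ was tested only where 2 mutant groups are set against each other below.

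**Figure D1:**
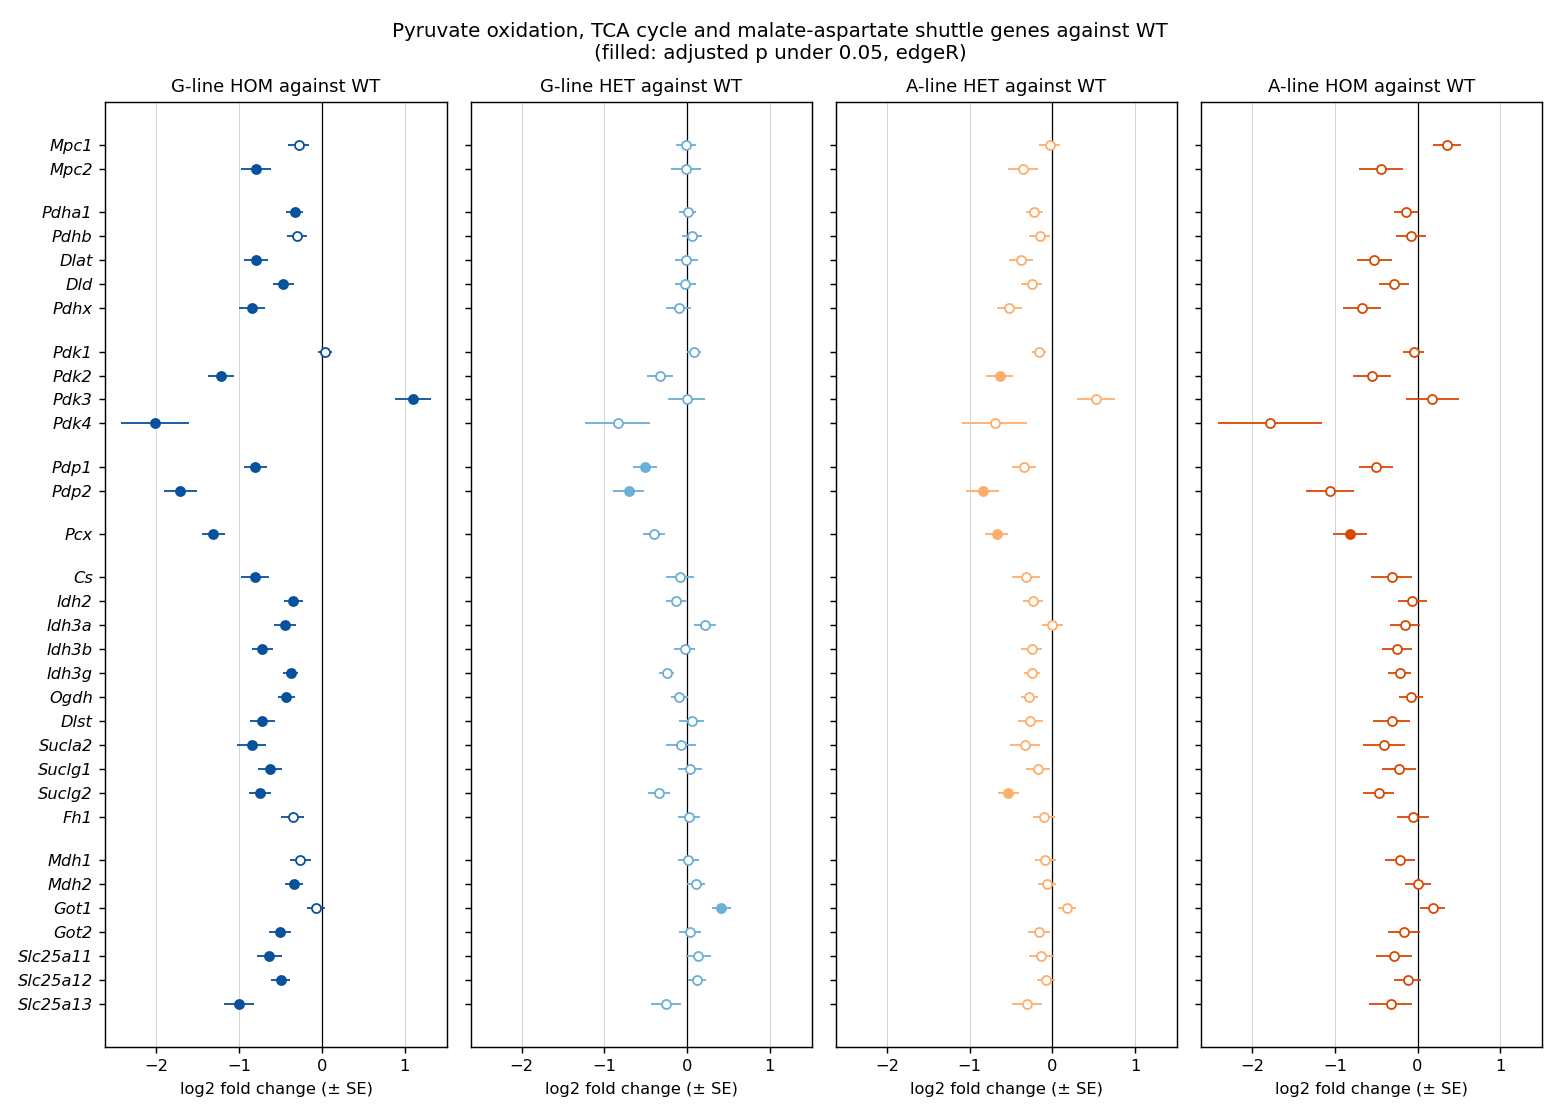
Log2 fold changes (± SE, horizontal axis) of the 32 genes, ordered by role, in each mutant group against WT; filled points have an adjusted p under 0.05 in edgeR. In G-line HOM 25 filled points lie to the left of 0 and 1, Pdk3, to the right, while the other panels hold 3, 4 and 1 filled points.

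Marker genes of cell types and general mitochondrial genes moved with this result, and the part of fibroblast, endothelial and erythroid markers in it was not tested. The summed level of the 10 cardiomyocyte markers was 58508 to 64734 CPM in WT and 44968 to 49735 CPM in the G-line HOM libraries, and 7 of the 10 fell. It was 56317 to 62462 CPM in the G-line HET libraries, 46749 to 59465 CPM in the A-line HET libraries and 52343 CPM in A-line HOM. Of 7 fibroblast markers, 4 rose in G-line HOM and none was at 0: their sum was 936 to 1624 CPM in WT, 2058 to 2930 in the G-line HOM libraries, 1335 to 2270.0 in the G-line HET libraries, 1393 to 2265 in the A-line HET libraries and 1561 in the A-line HOM library. Of 5 endothelial markers, 1 fell in G-line HOM and none was at 0: their sum ran from 623 to 723 CPM in WT, 456 to 572 in the G-line HET libraries, 527 to 608 in the G-line HOM libraries, 471 to 619 in the A-line HET libraries and was 514 in the A-line HOM library. Of 5 erythroid markers, none was called in G-line HOM and none was at 0, but among the G-line HOM libraries their sum was 1010 CPM in replicate 1, 1082 in replicate 2 and 252 in replicate 3. It was 289 to 388 CPM in WT, 412 to 597 in the G-line HET libraries, 321 to 532 in the A-line HET libraries and 308 in the A-line HOM library. In bulk tissue, fewer cells of a type and less RNA per cell cannot be told apart.

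The 32 genes together made 14208 to 16700 CPM in WT, 15334 to 15684 in the G-line HET libraries, 9845 to 12193 in the G-line HOM libraries, 12001 to 15996 in the A-line HET libraries and 13729 in the A-line HOM library. Every G-line HOM library lay below every WT and G-line HET library, and A-line HET replicate 3 lay in the G-line HOM range. Set against the cardiomyocyte markers, the same sum was 24.3% to 26.3% in WT and 21.9% to 26.6% in G-line HOM, and these ranges overlapped. Set against 18 general mitochondrial genes (import, chaperone, porin and membrane-shaping genes), its ratio was 3.30 to 3.48 in WT and 3.12 to 3.22 in the G-line HOM libraries, which did not overlap. Of those 18 genes 10 fell in G-line HOM, with a median log2 fold change of -0.47. The 2 mitochondrial ribosomal RNAs took 20.2% to 23.4% of counts in WT and 10.8% to 13.5% in G-line HOM. Their share was 15.4% to 16.7% in the G-line HET libraries, 13.2% to 17.1% in the A-line HET libraries and 15.1% in A-line HOM, below WT in every mutant library. The part of library preparation (TruSeq total RNA Gold) in these shares was not tested.

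Of the 2 subunits of the pyruvate carrier, 1 fell in G-line HOM. Mpc2 was at 158, 127 and 147 CPM in WT, 136, 148 and 143 in the G-line HET libraries and 62.9, 77.2 and 108 in the G-line HOM libraries. All G-line HOM libraries were below WT, the third closest to it. On the log2 scale Mpc2 fell by 0.80 ± 0.18 (adjusted p = 0.0063). Its partner Mpc1, with which it forms the carrier, was at 22.0 to 26.0 CPM in WT and 18.8 to 22.4 CPM in the G-line HOM libraries, groups that overlapped (-0.28 ± 0.12, adjusted p = 0.11).

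Within the pyruvate dehydrogenase complex, the core subunits Dlat and Pdhx had the largest estimates of the 5 in G-line HOM. Dlat, the E2 acetyltransferase around which the complex is built, was at 344, 301 and 339.8 CPM in WT, 330.5, 332 and 318 in the G-line HET libraries and 164, 191 and 212 in the G-line HOM libraries. A-line HET libraries were at 325, 222 and 209 CPM and the A-line HOM library at 228 CPM. G-line HOM lay far under WT without overlap, G-line HET lay inside the WT range, and A-line HET was divided between its first replicate, inside that range, and the others below it. The log2 fold change in G-line HOM was -0.80 ± 0.14 (adjusted p = 0.00111) and that in A-line HET -0.38 (adjusted p = 0.131).

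Pdhx, the E3-binding protein that anchors the last enzyme to the core, was at 134, 108 and 130.4 CPM in WT, 119, 117 and 111 in the G-line HET libraries, 63.2, 67.5 and 76.8 in the G-line HOM libraries, 113, 80.6 and 66.8 in the A-line HET libraries and 77.9 in the A-line HOM library. Again G-line HOM and WT were far apart and A-line HET spanned the space between them. The fall in G-line HOM was -0.84 ± 0.15 on the log2 scale (adjusted p = 0.00134).

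The subunits at the catalytic ends of the complex had smaller estimates, a difference that was not tested. Dld, the E3 dehydrogenase shared with other 2-oxoacid complexes, fell by 0.47 on the log2 scale in G-line HOM (adjusted p = 0.0133), and Pdha1, the E1 alpha subunit that the kinases phosphorylate, fell by 0.33 (adjusted p = 0.0278). Pdhb, the E1 beta subunit, was at 386 to 468 CPM in WT and 293 to 401 CPM in the G-line HOM libraries, and with these groups overlapping it missed the threshold (-0.30, adjusted p = 0.0907). None of the 5 subunits rose or fell in G-line HET, A-line HET or A-line HOM.

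The 4 kinases did not move alike in G-line HOM: Pdk2 and Pdk4 fell, Pdk3 rose, and Pdk1 gave no call. Pdk4, the kinase best known for induction by fasting and fatty acids, was at 375, 328 and 679 CPM in WT, 255, 279 and 238 in the G-line HET libraries and 142, 68.1 and 130.1 in the G-line HOM libraries. It was at 304, 388 and 161 CPM in the A-line HET libraries and 134 CPM in A-line HOM. WT replicate 3 stood well above the other WT libraries, every G-line library lay below WT, and A-line HET overlapped WT. The log2 fold change was -2.02 ± 0.41 in G-line HOM (adjusted p = 0.0059), -0.84 in G-line HET (adjusted p = 0.254) and -1.79 ± 0.63 in A-line HOM (adjusted p = 0.159).

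The G-line HOM call on Pdk4 ended when the shared columns were counted as A-line HOM (adjusted p = 0.169). The libraries with high Arntl, G-line HOM replicate 1 and A-line HET replicate 2, had the highest Pdk4 of their groups, and the part of the clock genes in this was not tested. Without those 2 libraries the call was kept.

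Pdk2, a widely expressed kinase of the complex, was at 186, 168 and 198 CPM in WT, 144, 152 and 144 in the G-line HET libraries and 66.0, 82.7 and 88.4 in the G-line HOM libraries. In A-line HET it was at 155, 93.3 and 107 CPM and in A-line HOM at 126 CPM. No mutant library reached WT, and the G-line HOM libraries were the lowest of all. Pdk2 fell by 1.22 ± 0.16 on the log2 scale in G-line HOM (adjusted p = 0.000155) and by 0.64 ± 0.16 in A-line HET (adjusted p = 0.0278).

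Pdk3, in WT the kinase with the lowest level per length, was at 4.04, 6.09 and 3.79 CPM in WT, 4.16, 4.40 and 5.31 in the G-line HET libraries, 12.1, 9.80 and 8.03 in the G-line HOM libraries, 5.99, 5.71 and 8.35 in the A-line HET libraries and 5.26 in the A-line HOM library. The G-line HOM libraries were all above WT and G-line HET, and A-line HET replicate 3 was above the lowest of them. The rise was 1.10 ± 0.22 on the log2 scale against WT (adjusted p = 0.002) and 1.11 against G-line HET (adjusted p = 0.00605). Pdk1 was at 195 to 227 CPM in WT and 211 to 232 CPM in the G-line HOM libraries (0.04 ± 0.09, adjusted p = 0.789).

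Levels of the kinases can be set side by side only per length, as CPM per kb of exons. On that scale Pdk4 held 58.5% ± 7.81 (SD, n = 3) of the summed kinase level in WT, 48.5% ± 1.65 in G-line HET, 35.4% ± 9.50 in the G-line HOM libraries, 54.0% ± 12.3 in A-line HET and 35.7% in A-line HOM. Pdk1 held 10.1% to 14.8% in WT and 29.1% to 36.6% in G-line HOM, and Pdk2 27.5% ± 4.86 and 28.2% ± 5.61. Pdk3 held 0.896% ± 0.433 in WT and 4.39% ± 1.04 in G-line HOM. In WT, then, Pdk4 was the largest part of the kinase transcripts in every library. In G-line HOM the largest part was Pdk4 in replicates 1 and 3 (43.4% and 37.8%) and Pdk1 in replicate 2 (36.6%), and Pdk3 remained the smallest. The lengths take all annotated exons of a gene (7779 bases for Pdk1, 3163 for Pdk2 and 3511 for Pdk4). Transcripts in the tissue may be shorter, and the order of the kinases depends on these lengths. These shares are a description and were not tested.

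**Figure D2:**
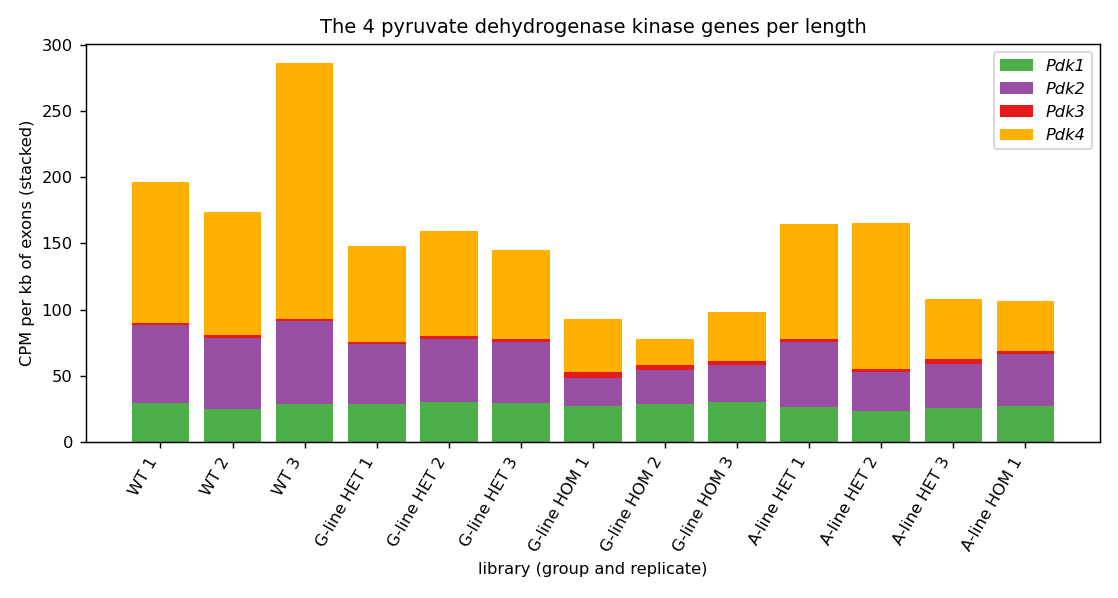
Level of the 4 pyruvate dehydrogenase kinase genes in each library, in CPM per kb of exons, stacked from Pdk1 at the bottom to Pdk4 at the top. The Pdk4 segment is tallest in WT replicate 3 and short in the G-line HOM libraries, the Pdk1 segment is of similar height in all 13 libraries, and Pdk3 is a thin band throughout.

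Both phosphatases fell in G-line HOM and in G-line HET. Pdp2 was at 64.2, 48.1 and 63.3 CPM in WT, 30.1, 37.6 and 39.8 in the G-line HET libraries, 14.2, 19.4 and 20.2 in the G-line HOM libraries, 40.6, 33.6 and 24.0 in the A-line HET libraries and 28.1 in the A-line HOM library. No mutant library overlapped WT, and G-line HOM lay below all others. The fall was -1.71 ± 0.20 in G-line HOM (adjusted p = 9.79e-05), -0.71 ± 0.19 in G-line HET (adjusted p = 0.0449) and -0.84 ± 0.20 in A-line HET (adjusted p = 0.0208), and the A-line HOM value of -1.06 ± 0.29 had an adjusted p of 0.063.

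Pdp1, the calcium-stimulated phosphatase, was at 62.3, 54.6 and 61.5 CPM in WT, 37.0, 42.7 and 45.6 in the G-line HET libraries, 27.8, 33.4 and 41.2 in the G-line HOM libraries, 55.6, 43.6 and 41.7 in the A-line HET libraries and 42.1 in the A-line HOM library. Both G-line groups were below WT and overlapped each other. Pdp1 fell by 0.80 ± 0.14 in G-line HOM (adjusted p = 0.00094) and by 0.51 ± 0.14 in G-line HET (adjusted p = 0.043) on the log2 scale. The G-line HET calls on Pdp1 and Pdp2 were lost in 12 and 15 of the 25 alternative analyses. Without WT replicate 1, WT replicate 3 or any single G-line HET library, none of the 32 genes was called in G-line HET. These fits called 2.98% to 6.16% of all genes in G-line HET. Per length, Pdp2 held 43.6% ± 2.23 (SD, n = 3) of the summed phosphatase level in WT, 40.4% ± 1.03 in G-line HET and 29.4% ± 1.88 in G-line HOM.

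Pcx, which makes oxaloacetate from pyruvate and so refills the TCA cycle, was the gene called in most comparisons with WT, together with Pdp2. It was at 29.4, 36.3 and 29.8 CPM in WT, 28.6, 20.8 and 23.0 in the G-line HET libraries, 12.8, 12.5 and 13.01 in the G-line HOM libraries, 22.7, 20.6 and 16.9 in the A-line HET libraries and 18.1 in the A-line HOM library. Every mutant library was below WT, and the G-line HOM libraries lay close together at the bottom. The log2 fold change was -1.31 ± 0.14 in G-line HOM (adjusted p = 2.74e-05), -0.67 in A-line HET (adjusted p = 0.00842), -0.82 ± 0.20 in A-line HOM (adjusted p = 0.0357) and -0.40 in G-line HET (adjusted p = 0.0885).

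**Figure D3:**
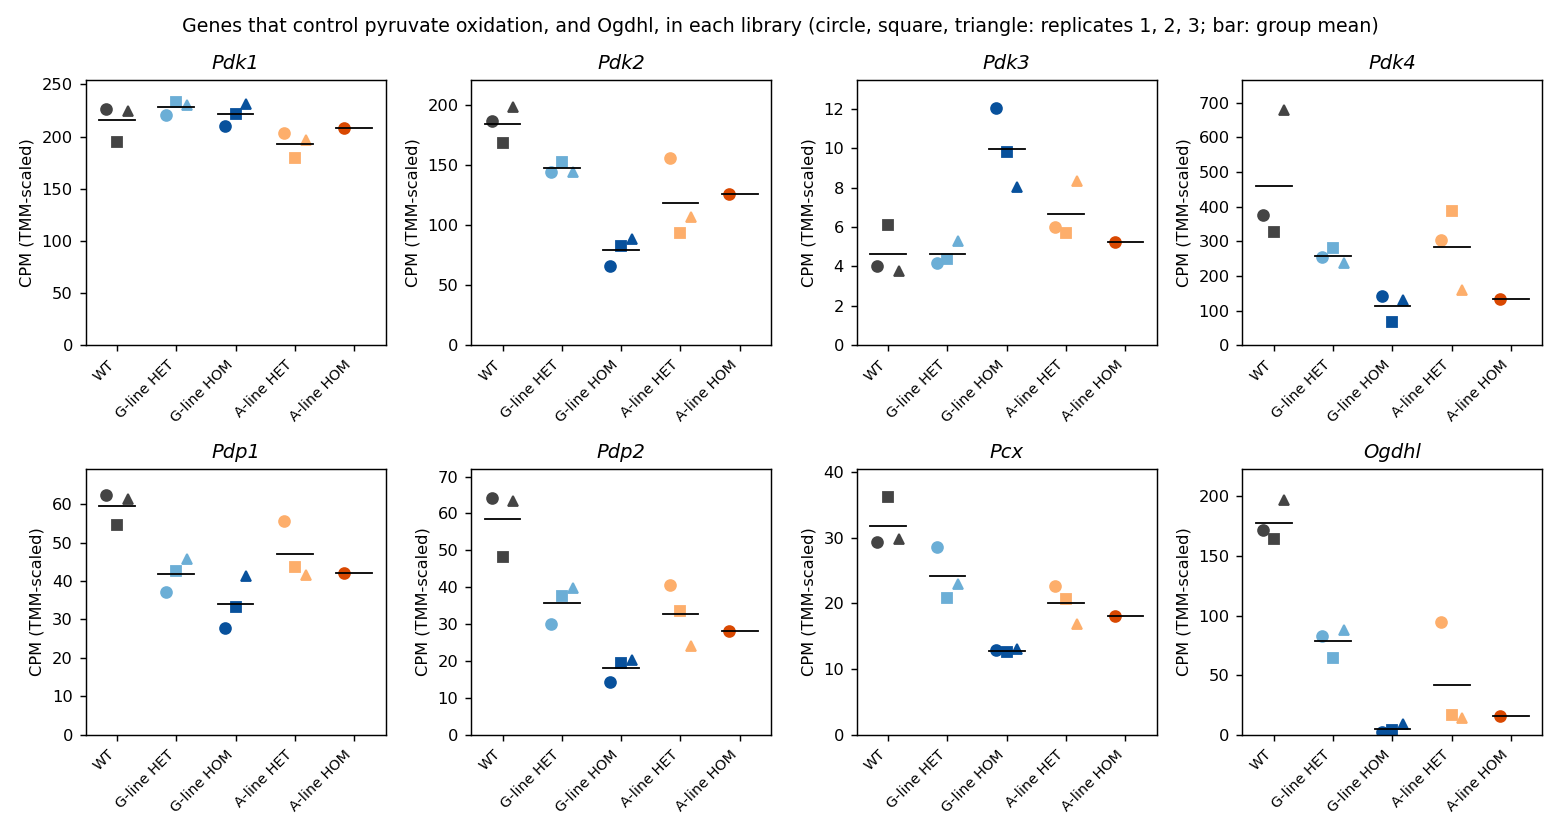
CPM (vertical axes from 0) in each of the 13 libraries for the 4 kinases, the 2 phosphatases, Pcx and Ogdhl; circles, squares and triangles are replicates 1, 2 and 3 and bars are group means. Pdk2, Pdp2 and Pcx are below WT in every mutant library, Pdk3 is highest in G-line HOM, and Pdk1 lies at a similar height in all groups.

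Pcx, Pdp2 and Pdk2 had the smallest adjusted p-values of the 32 genes in G-line HOM, and their promoters are shown as the control regions of genes that were lower together. The sequences are from RefSeq (GRCm38.p6) and give the 250 bases before a transcription start, 5′ to 3′ on the gene's strand, with the E-box CACGTG in capitals. The Pcx sequence lies at chr19:4510222-4510471 on the plus strand, that of Pdk2 at chr11:95041372-95041621 on the minus strand and that of Pdp2 at chr8:104591222-104591471 on the plus strand. Pcx and Pdk2 each have 2 windows in the table, of which the one with an E-box is printed.
Pcx: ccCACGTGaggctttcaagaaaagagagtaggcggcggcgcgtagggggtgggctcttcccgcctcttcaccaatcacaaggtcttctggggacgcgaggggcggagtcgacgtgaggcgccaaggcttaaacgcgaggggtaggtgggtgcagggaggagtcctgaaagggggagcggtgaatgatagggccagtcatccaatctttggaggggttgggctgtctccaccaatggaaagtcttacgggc
Pdk2: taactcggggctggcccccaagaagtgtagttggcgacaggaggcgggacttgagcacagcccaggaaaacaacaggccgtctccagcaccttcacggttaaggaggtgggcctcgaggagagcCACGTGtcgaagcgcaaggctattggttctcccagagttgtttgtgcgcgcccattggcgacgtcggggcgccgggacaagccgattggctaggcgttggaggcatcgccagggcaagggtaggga
Pdp2: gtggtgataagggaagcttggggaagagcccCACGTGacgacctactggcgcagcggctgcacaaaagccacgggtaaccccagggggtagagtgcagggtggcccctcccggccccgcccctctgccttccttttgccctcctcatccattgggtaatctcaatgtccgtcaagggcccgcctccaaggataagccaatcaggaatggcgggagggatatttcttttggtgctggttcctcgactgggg

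The E-box began at position -248 from the start in Pcx, -126 in Pdk2 and -219 in Pdp2. Promoter windows from 250 bases before to 50 after the start were found for 30 of the 32 genes, in 39 windows, and not for Pdp1 and Idh3a. Of the 30 genes, 5 had an E-box (Ogdh, Pcx, Pdk2, Pdp2 and Slc25a13), or 16.7%, beside 8.09% of all 27025 genes in the table. The other motifs, searched on both strands with no overlap between motifs, were rarer. NRF1 (GCGCA, any base, then GCGC) was in Dld and Sucla2, 6.67% beside 5.19% of all genes, and CREB (TGACGTCA) was in Mdh2 and Ogdh, 6.67% beside 2.03%. ERR (TNAAGGTCA) and PPAR (AGGTCA, any base, then AGGTCA) were in none, beside 1.43% and 0.0481% of all genes. These matches are descriptions of the letters in these windows.

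In the TCA cycle 10 of 11 genes fell in G-line HOM and none in G-line HET. Mdh2, which also serves the cycle, is counted with the shuttle. Citrate synthase, Cs, which joins acetyl-CoA to oxaloacetate, was at 1342, 1092 and 1302 CPM in WT, 1154, 1228 and 1142 in the G-line HET libraries, 577, 710.0 and 844 in the G-line HOM libraries, 1305, 871 and 826 in the A-line HET libraries and 1002 in the A-line HOM library. G-line HET lay inside the WT range, G-line HOM below it, and A-line HET on both sides of the lower WT limit. The fall in G-line HOM was -0.81 ± 0.17 on the log2 scale (adjusted p = 0.0031).

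The NAD-dependent isocitrate dehydrogenase was lower in all 3 subunits. Idh3b was at 502, 468 and 531 CPM in WT, 500.2, 488 and 481 in the G-line HET libraries, 253, 308 and 349.9 in the G-line HOM libraries, 497, 409 and 357 in the A-line HET libraries and 421 in the A-line HOM library. WT and G-line HET overlapped and G-line HOM lay well below both. Idh3b fell by 0.72 ± 0.13 (adjusted p = 0.000936), and Idh3a, the catalytic subunit, by 0.44 (adjusted p = 0.0201) and Idh3g by 0.38 (adjusted p = 0.00775) on the log2 scale. The call on Idh3a was lost in 7 of 25 alternative analyses. In G-line HET Idh3a lay above every WT library, at 545 to 569 CPM beside 446 to 509 CPM, without a call. Idh2, the NADP-dependent enzyme, had overlapping libraries, 1337 to 1603 CPM in WT and 1088 to 1346 CPM in the G-line HOM libraries, and only just passed (-0.34, adjusted p = 0.0484); this call was lost in 16 of 25 alternative analyses.

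Of the 2-oxoglutarate dehydrogenase complex, the E2 gene Dlst changed more than the E1 gene Ogdh in G-line HOM, without a test between them. Dlst was at 561, 461 and 548 CPM in WT, 546, 543 and 542 in the G-line HET libraries, 277, 316 and 361 in the G-line HOM libraries, 567, 379 and 362 in the A-line HET libraries and 421 in the A-line HOM library. G-line HET libraries were nearly equal and inside the WT range, and G-line HOM was below it. Dlst had a log2 fold change in G-line HOM of -0.72 ± 0.15 (adjusted p = 0.00324), and Ogdh, at 1738 to 2035 CPM in WT and 1357 to 1485 CPM in the G-line HOM libraries, one of -0.43 (adjusted p = 0.00619).

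Succinyl-CoA ligase, which conserves energy as ATP or GTP, fell in its alpha subunit and both alternative beta subunits. Sucla2, the ATP-forming beta subunit, was at 618, 516 and 602 CPM in WT, 554, 556 and 542 in the G-line HET libraries, 247, 293 and 423 in the G-line HOM libraries, 565, 428 and 386 in the A-line HET libraries and 437 in the A-line HOM library. Its G-line HOM libraries were spread widely but stayed below WT. It fell by 0.85 ± 0.18 on the log2 scale (adjusted p = 0.0035).

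Suclg2, the GTP-forming beta subunit, was at 179.9, 154 and 164 CPM in WT, 127, 144 and 122 in the G-line HET libraries, 82.7, 96.0 and 117 in the G-line HOM libraries, 132, 106 and 107 in the A-line HET libraries and 120.0 in the A-line HOM library. Every mutant library was below WT. Suclg2 had log2 fold changes of -0.75 ± 0.13 in G-line HOM (adjusted p = 0.000695), -0.53 in A-line HET (adjusted p = 0.0201) and -0.34 in G-line HET (adjusted p = 0.124). Per length, Sucla2 held 80.1% ± 0.729 (SD, n = 3) of both beta subunits in WT and 78.7% ± 1.69 in G-line HOM.

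Suclg1, the alpha subunit common to both forms, was at 270.4, 237 and 282 CPM in WT, 261, 274 and 272 in the G-line HET libraries, 137, 164 and 209.7 in the G-line HOM libraries, 279.6, 219 and 204 in the A-line HET libraries and 226 in the A-line HOM library. Only G-line HOM lay wholly below WT among the groups of 3. Suclg1 fell by 0.63 ± 0.14 on the log2 scale (adjusted p = 0.00544). Fumarase, Fh1, which hydrates fumarate to malate, was the 1 TCA cycle gene not called, at 326 to 374 CPM in WT and 218 to 340.4 CPM in the G-line HOM libraries (-0.36, adjusted p = 0.0681).

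Of the malate-aspartate shuttle 5 of 7 genes fell in G-line HOM. The 2 aspartate-glutamate carriers, which export aspartate from the mitochondrion, both fell. Slc25a13 (citrin) was at 185, 148 and 188 CPM in WT, 139, 144 and 154 in the G-line HET libraries, 67.9, 84.9 and 108 in the G-line HOM libraries, 181, 125 and 116 in the A-line HET libraries and 138 in the A-line HOM library. Slc25a12 (aralar) was at 232, 208 and 232 CPM in WT, 236, 242 and 252 in the G-line HET libraries, 152, 155 and 169 in the G-line HOM libraries, 259, 197 and 182 in the A-line HET libraries and 206 in the A-line HOM library. For both carriers G-line HOM was below WT without overlap. For Slc25a12 all G-line HET libraries were also above WT, and for Slc25a13 replicates 1 and 2 of G-line HET were below WT.

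The log2 fold change in G-line HOM was -0.999 ± 0.18 for Slc25a13 (adjusted p = 0.0017) and -0.50 ± 0.11 for Slc25a12 (adjusted p = 0.00514). Per length, Slc25a12 held 40.2% ± 1.65 (SD, n = 3) of both carriers in WT, 46.4% ± 0.484 in G-line HET and 49.0% ± 4.47 in G-line HOM. Slc25a11, the 2-oxoglutarate-malate carrier, fell by 0.64 in G-line HOM (adjusted p = 0.00667), the mitochondrial transaminase Got2 by 0.51 (adjusted p = 0.0117) and the mitochondrial malate dehydrogenase Mdh2 by 0.34 (adjusted p = 0.0356) on the log2 scale.

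The cytosolic enzymes of the shuttle, Mdh1 and Got1, did not fall in G-line HOM. Mdh1 was at 1709 to 2035 CPM in WT and 1307 to 1743 CPM in the G-line HOM libraries (-0.26 ± 0.13, adjusted p = 0.15). Got1 was at 635, 522 and 626 CPM in WT, 749.7, 808 and 819 in the G-line HET libraries and 517, 618 and 562 in the G-line HOM libraries. In A-line HET it was at 749.9, 675 and 594 CPM and in A-line HOM at 674 CPM. G-line HET lay above every WT and G-line HOM library, and WT and G-line HOM overlapped. Got1 was the 1 gene of the 32 that rose in G-line HET (0.41 ± 0.11, adjusted p = 0.0364), a call kept in 14 of 25 alternative analyses; it was lower in G-line HOM than in G-line HET by -0.49 ± 0.11 (adjusted p = 0.0118).

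Copies of the same mutation could be compared directly in the G-line. Against G-line HET, 22 of the 32 genes fell in G-line HOM and 1, Pdk3, rose, with 14.6% of all genes called, 6.22% higher and 8.42% lower. The median log2 fold change was -0.58, beside 0.04 over all genes. In 28 of the 32 genes all G-line HOM libraries lay below all G-line HET libraries, beside 17.1% of all genes. The genes not called were Mpc1, Pdhb, Pdk1, Pdk4, Pdp1, Idh2, Idh3g, Fh1 and Mdh1. Leaving out G-line HOM replicate 1 or replicate 2 reduced the 23 calls to 15 each, in fits that called 8.33% and 6.67% of all genes.

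Within the groups some libraries were high or low across the 32 genes. G-line HOM replicate 1 was the lowest of its group in 29 of 32 genes, beside 34.7% of all genes, and replicate 3 the highest in 24, beside 34.8%. WT replicate 2 was the lowest WT library in 30 of 32 genes, beside 38.1% of all genes. A-line HET replicate 3 was the lowest of its group in 26, beside 29.7%. These libraries and G-line HOM replicate 1 are the 3 with Myl7 at 10 CPM or more. They also had the highest smooth muscle marker sums of their groups (248, 310 and 278 CPM, in this order). The same was true of the adipocyte marker sums (43.1, 8.08 and 8.13 CPM). The part of atrial or other tissue in these low levels was not tested. Without the 3 libraries that held Myl7, 22 genes fell and 1 rose in G-line HOM against WT.

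**Figure D4:**
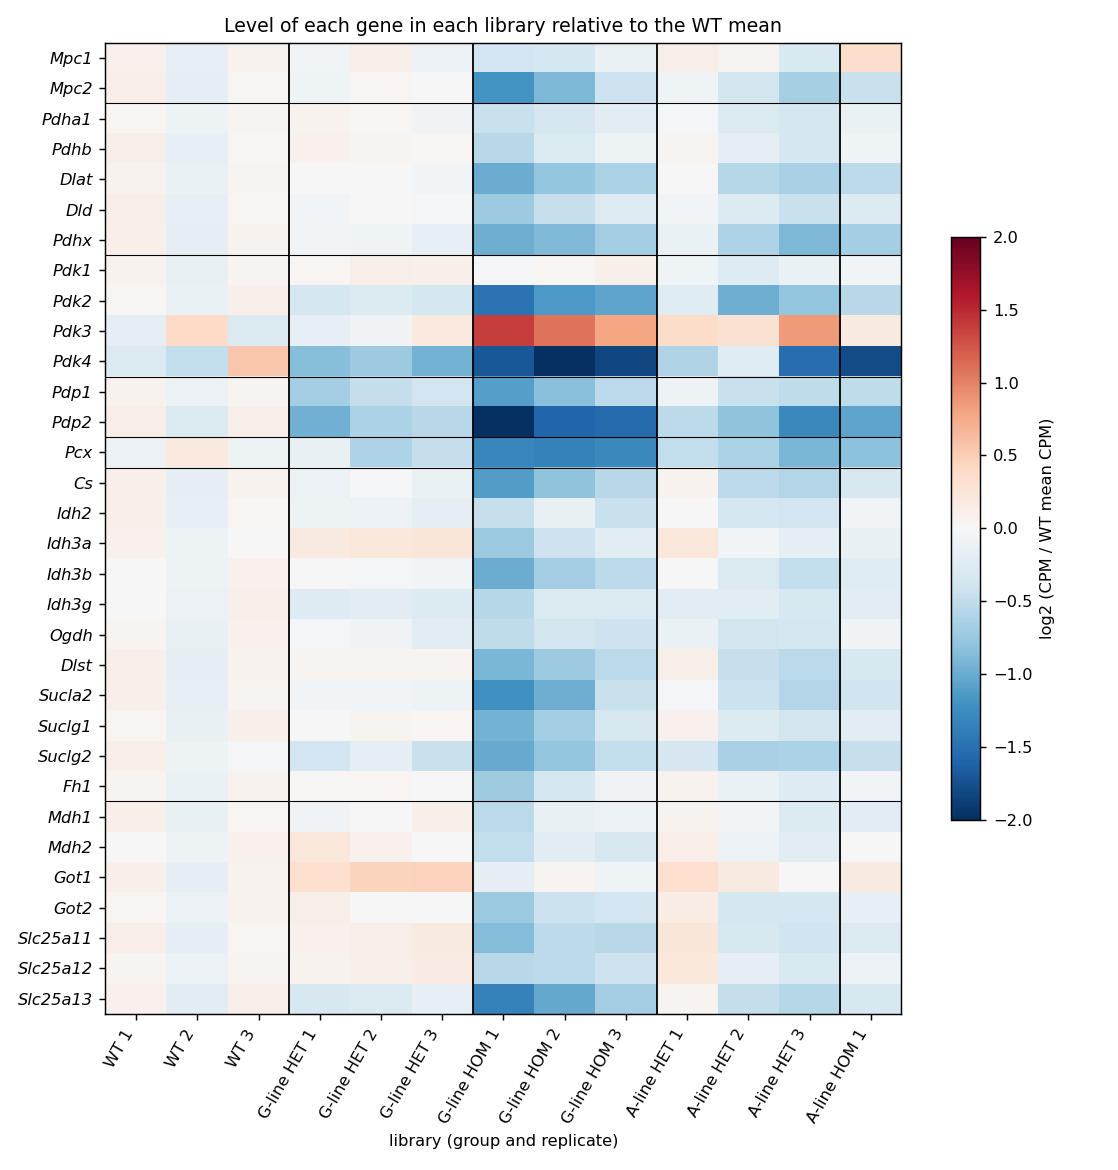
Level of each of the 32 genes (rows, by role) in each of the 13 libraries (columns), as log2 of CPM over the WT mean; the colour scale ends at -2 and 2, and values beyond it take the end colour. The G-line HOM columns are mostly blue, Pdk3 is red there, and A-line HET replicate 1 is paler than replicates 2 and 3.

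The A-line HET libraries were not alike. Replicate 1 was the highest of its group in 29 of 32 genes, beside 34.7% of all genes, and within or above the WT range in 26, beside 68.8% of all genes. Replicates 2 and 3 were both below the WT range in 25 of 32 genes, beside 20.9% of all genes. The 4 genes that fell in A-line HET were Pcx, Pdk2, Pdp2 and Suclg2. Their calls were lost in 4, 11, 10 and 9 of 25 alternative analyses, in that order. Without replicate 1, 11 fell, among them Dlat (-0.61, adjusted p = 0.00251) and Pdhx (-0.75, adjusted p = 0.00127). In that fit 11.6% of all genes were called, 5.43% higher and 6.21% lower. Without replicate 2, without replicate 3, without WT replicate 1 or without WT replicate 3, 1 fell. These fits called 4.05%, 4.04%, 3.79% and 3.61% of all genes.

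The A-line HOM library lay within the range of the A-line HET libraries in 27 of 32 genes, beside 56.7% of all genes, and above all G-line HOM libraries in 26, beside 28.9% of all genes. Against WT, 23 of its values lay below all 3 WT libraries and 2 above, where 34.4% and 33.5% of all genes do. With a single library, 1 gene, Pcx, passed the threshold, and 8 had an unadjusted p under 0.05, as did 18.8% of all genes. That call ended under each other use of the shared columns (as A-line HOM, omitted, or in both groups). With them as A-line HOM or omitted, 1 WT library remained. With them in both groups, replicates 2 and 3 were the same on both sides, and 0% of all genes were called. These fits therefore cannot decide on Pcx. Over all alternatives its log2 fold change in A-line HOM ran from -0.90 to -0.06. The call also ended without WT replicate 1, WT replicate 3, G-line HET replicate 3 or G-line HOM replicate 2, in fits that called fewer of all genes. Without A-line HET replicate 1, 4 genes fell, beside 2.99% of all genes.

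Between the lines, with the HET groups set against each other, none of the 32 genes was called by edgeR, with 0.0284% of all genes called, 0.0114% higher and 0.0171% lower. In 1 gene, Pdk3, A-line HET lay above G-line HET without overlap and in 1, Pdk1, below, beside 9.37% and 8.06% of all genes. DESeq2 also called none, and 5 genes had an unadjusted p under 0.05 in edgeR, as did 13.3% of all genes. The median log2 fold change, A-line HET over G-line HET, was -0.21, beside 0.02 over all genes. Without A-line HET replicate 1, 6 genes were lower in A-line HET than in G-line HET: Dlat, Dlst, Pdhx, Pdk2, Slc25a11 and Slc25a12. In that fit 3.47% of all genes were called, 1.32% higher and 2.15% lower.

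Genes around the same pathways were taken from lists of 38 genes, of which 36 passed the filter on low counts, Pdha2 and Slc25a21 not. In G-line HOM 18 fell and 4 rose against WT. In G-line HET 4 fell and 2 rose, in A-line HET 7 fell and 2 rose, and in A-line HOM 3 fell and 1 rose. Against G-line HET, 19 fell in G-line HOM and none rose, beside 8.42% lower and 6.22% higher of all genes. Of all genes, 13.3% were lower and 13.1% higher in G-line HOM against WT, and 3.54% and 3.97% in G-line HET. The shares lower and higher were 3.97% and 3.99% in A-line HET and 1.86% and 2.82% in A-line HOM. The 4 succinate dehydrogenase subunits (Sdha, Sdhb, Sdhc and Sdhd) and Ogdhl fell in G-line HOM.

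Ogdhl, an alternative E1 of the 2-oxoglutarate dehydrogenase complex, was singled out after its values were seen. It was at 172, 164 and 197 CPM in WT, 83.0, 64.4 and 87.7 in the G-line HET libraries, 2.19, 3.58 and 8.83 in the G-line HOM libraries, 94.9, 16.2 and 13.7 in the A-line HET libraries and 15.4 in the A-line HOM library. No mutant library overlapped WT, and A-line HET replicate 1 was near G-line HET while replicates 2 and 3 were near A-line HOM. The log2 fold change was -5.22 ± 0.88 in G-line HOM against WT (adjusted p = 0.003) and -4.04 against G-line HET (adjusted p = 0.018). It was -1.18 ± 0.72 in G-line HET (adjusted p = 0.391), -2.11 ± 0.75 in A-line HET (adjusted p = 0.142) and -3.52 ± 1.29 in A-line HOM (adjusted p = 0.187). The call in G-line HOM against WT was lost with the shared columns as A-line HOM (adjusted p = 0.0543), and that against G-line HET was kept in 20 of 25 alternatives, with an adjusted p of up to 0.0718.

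Further neighbours are named by their adjusted p in G-line HOM. Ldhd, which oxidises D-lactate, was at 37.9, 36.7 and 43.5 CPM in WT and 8.19, 10.1 and 11.7 in G-line HOM (-1.98, adjusted p = 6.32e-05), with no overlap. Pdpr, the regulatory subunit of pyruvate dehydrogenase phosphatase, was at 228, 186 and 222 CPM in WT, 155, 164 and 166 in the G-line HET libraries, 97.8, 106 and 122 in the G-line HOM libraries, 155, 114 and 124 in the A-line HET libraries and 131 in the A-line HOM library. It lay below WT in every mutant library, like Pdp2 and, in the G-line, Pdp1. It fell by 0.97 in G-line HOM (adjusted p = 7.82e-05), 0.70 in A-line HET (adjusted p = 0.00313) and 0.69 in A-line HOM (adjusted p = 0.0392) on the log2 scale. The A-line HOM calls on Pdpr, Pck2 and Me1 were kept in 14, 14 and 16 of 24 alternative analyses.

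Me1, cytosolic malic enzyme, fell in all 4 mutant groups against their shared WT: by 1.26 on the log2 scale in G-line HOM (adjusted p = 0.000196), 0.66 in G-line HET (adjusted p = 0.0304) and 1.10 in A-line HET (adjusted p = 0.00217), and its mean in A-line HOM was 55.2 CPM beside 110.4 CPM in WT (adjusted p = 0.0419). The calls on Me1 were kept in 24 of 25 alternatives in G-line HOM, 16 in G-line HET and 22 in A-line HET. In G-line HOM falls were also seen in Mmut (-0.90, adjusted p = 0.000137) and Pcca (-0.82, adjusted p = 0.000168), which lead propionate into the TCA cycle. Ldhb, the heart form of lactate dehydrogenase, fell by 0.76 in G-line HOM (adjusted p = 0.000345), by 0.54 in A-line HET (adjusted p = 0.0127) and by 0.44 in G-line HET (adjusted p = 0.038). The A-line HET and G-line HET calls on Ldhb were kept in 18 and 15 of 25 alternatives. The glutamate carrier Slc25a22 fell by 1.12 in G-line HOM (adjusted p = 0.000944).

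Rises were fewer. Pck2, mitochondrial phosphoenolpyruvate carboxykinase, was at 8.20 to 10.6 CPM in WT and 13.8 to 16.2 CPM in the G-line HOM libraries and rose by 0.71 (adjusted p = 0.000767). In G-line HET Pck2 rose by 0.59 (adjusted p = 0.00973) and in A-line HOM by 0.67 (adjusted p = 0.0393). It also rose by 0.54 in A-line HET (adjusted p = 0.0176), a call kept in 15 of 25 alternative analyses. Bdh1, which interconverts the ketone bodies, was at 61.9, 39.6 and 59.5 CPM in WT and 206, 185 and 217 CPM in the G-line HET libraries, a rise of 1.92 (adjusted p = 0.00057). The G-line HET libraries of Bdh1 were above all others. Bdh1 was also called higher than WT for A-line HET, a call kept in 17 of 25 alternatives. Its log2 fold changes there ran from 0.74 to 1.12 over the alternatives. For G-line HOM its rise over WT was kept in 24 of 25 alternatives, with 1.03 to 1.46. Gpt, which exchanges pyruvate and alanine, was at 42.1, 37.3 and 48.1 CPM in the G-line HET libraries and 7.54, 10.1 and 13.1 CPM in G-line HOM (-2.06, adjusted p = 0.00298). Against G-line HET, G-line HOM was also lower in Ldhd (-1.47, adjusted p = 0.00218) and Pdpr (-0.57, adjusted p = 0.00804).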

How the data were processed

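Total RNA of mouse left ventricle was sequenced from TruSeq total RNA Gold libraries, per the labels' protocols. The submitters' processing notes name bcl2fastq 2.20.0.422, Trimmomatic 0.39, STAR 2.7.4a and the mm39 (GRCm39) build. Raw counts for each gene symbol were deposited in 3 tables (WT, G-line, A-line). The sources used here do not give the counting program, the annotation or the use of strand, so reads shared with antisense or near-identical genes cannot be told apart.

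Sample titles gave the groups and replicate numbers. Identical columns were used once, as WT. Genes needed 0.422 CPM (10 counts in the median library) in at least 3 libraries and at least 15 counts in total. Counts of 13 libraries were fitted in 1 model with a mean per group (edgeR 4.0.16, R 4.3.3; TMM factors, robust quasi-likelihood F test, two-sided, 8 residual degrees of freedom, common biological variation 17.1%), with Benjamini-Hochberg adjustment over 17588 genes and a threshold of 0.05. A check on simulated counts for G-line HOM against WT used 17061 genes, of which 200 were given a change. It recovered 66% of the changes of size 1 and 98% of the changes of size 2 (log2 scale). Its calls numbered 170, and 6 of them were wrong. In the real counts 26.4% of genes were called, a larger share than was changed in this check. The check therefore does not give the power or the rate of false calls in the real counts. Levels per length used exon lengths of GENCODE M21 (GRCm38), a different build from that of the files, and no coordinate was carried between builds.

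Values in every library are given for genes called with an absolute log2 fold change of at least 0.5, at most 16 by smallest adjusted p, and for Pdk4; of the neighbours, the 8 with the smallest adjusted p in G-line HOM against WT and 3 in each other comparison are named. Mpc2, Got1 and Ogdhl are given beyond this rule. 1 gene of the neighbour lists is not reported here. The members and lists were chosen with earlier results of these data known. Alternatives were DESeq2 1.42.0, other scaling and filters, only the 2 groups compared, a replicate block, other uses of the shared columns, and leaving out libraries.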

Additional observations from a re-analysis of the deposited data

Results flagged for a closer look

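In Mpc1 and Mdh2 the homozygous groups of the 2 lines lay on opposite sides of the WT mean. Mpc1 was at a mean of 20.2 CPM in G-line HOM, 24.5 CPM in WT and 31.4 CPM in the A-line HOM library. Mdh2 was at a mean of 527 CPM in G-line HOM, 667 CPM in WT and 671 CPM in the A-line HOM library. The A-line HOM value of Mdh2 was close to the WT mean and inside the WT range of 619 to 711 CPM. The difference between the lines was not tested, and the A-line has 1 homozygous library.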

How the results depend on the processing

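No called change of the 32 genes turned its direction in any alternative. The following counts of genes called differed by more than 1.5 times from those reported; their causes were not tested, except that fewer libraries entered some fits. With the shared columns as A-line HOM or left out, 1 WT library remained. Fewer genes were then called against WT in every mutant group, among the 32 and among all genes. With the shared columns in both groups, G-line HET, A-line HET and A-line HOM had 0 calls each. That fit called 2.45%, 0% and 0% of all genes in them. G-line HET had 3 calls, and 1 with RLE size factors, 1 without mitochondrial and ribosomal RNA genes and 5 in a fit of only the 2 groups. These fits called 7.47%, 7.47% and 13.3% of all genes, beside 7.52% in the reported fit. A-line HOM had 1 call, and 3 with DESeq2, 7 in a fit of only the 2 groups and 2 without the libraries with atrial transcripts. A-line HET had 4 calls, and 1 without those libraries or without the libraries with high Arntl, with 3.87% and 4.84% of all genes called instead of 7.96%. G-line HOM against G-line HET had 23 calls, and 11 without the libraries with high Arntl, with 8.89% of all genes called instead of 14.6%. The samples share only a number: of 18 pairs with the same replicate number 4 correlated above 0.1, and 2 of 12 libraries correlated best with their own number. With that number as a replicate block, G-line HOM had 24 calls against WT and 19 against G-line HET, beside 23.6% and 11.3% of all genes. A-line HET had 2 and G-line HET 0 against WT, beside 5.95% and 5.52%. Between the HET groups there were 0, beside 0.00569%. Leaving out single libraries gave 20 to 26 calls in G-line HOM against WT, 15 to 25 against G-line HET, 1 to 11 in A-line HET, 0 to 3 in G-line HET, 0 to 4 in A-line HOM and 0 to 6 between the HET groups. Over all genes the counts ran from 1151 to 4890 in G-line HOM, 5 to 2200 in G-line HET, 0 to 2038 in A-line HET, 0 to 1440 in A-line HOM, 1168 to 3116 in G-line HOM against G-line HET and 0 to 607 between the HET groups.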
